A study of Mus musculus with 11 samples.

Results

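The genes described are 10 markers of natural killer (NK) cells and cytotoxic lymphocytes, Ncr1, Klrb1c, Klrd1, Klrk1, Nkg7, Gzma, Gzmb, Prf1, Eomes and Tbx21, chosen by symbol among the 22600 genes of the merged count table. Each symbol matched 1 row, and all 10 genes passed the filter on low counts that left 16496 genes. RNA came from the entire distal tibia of each mouse, with 1 library per mouse from 4 Control and 7 BMAd-DTA animals of the strain labelled C57BL6/SJL, fed ad libitum and labelled as 24 weeks old. By the study's methods every mouse carried Osterix-FLPo and FAC, a Cre cassette in the Adipoq gene that is expressed only after FLPo has turned it around, so Controls have the recombinases too. BMAd-DTA mice also carried ROSA-DTA, in which Cre removes a stop cassette and diphtheria toxin A kills bone marrow adipocytes (BMAds). Control mice are labelled BMAd-WT. As a model it has limits given in the study: the Cre also reaches a small subset of MALPs (marrow adipogenic lineage precursors), and recombination is less complete in young mice.

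NK cells kill infected or transformed cells without prior sensitization and mature largely in the BM. They read the balance between activating receptors, such as NKp46 and NKG2D, and inhibitory receptors that bind MHC class I. On activation, NK cells and CD8 T cells release granules in which perforin opens the target membrane and granzymes cleave proteins inside the target. The T-box factors T-bet and Eomes direct this program, and IL-15, presented by stromal and myeloid cells of the marrow, keeps NK cells alive.

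The libraries held 16969529 to 18637663 counts assigned to genes. Levels are in CPM, counts scaled to library size. Erythroid markers summed to at least 14737 CPM and osteoblast markers to at least 1608 CPM in every library. Skeletal muscle markers ranged from 16.7 to 1316 summed CPM in Control and from 18.3 to 1024 in BMAd-DTA libraries, a wide spread within each group. The figure legends of the study describe male mice, whereas Xist had at least 13810 counts and 4 Y-linked genes had 0 or 1 count together in every library. Such counts are those of female RNA in all 11 libraries, and the labels give no sex.

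No gene of the group passed the test between BMAd-DTA and Control mice. With p values from edgeR's quasi-likelihood fit, adjusted by Benjamini-Hochberg across the whole table, 0 of 10 fell under 0.05, where 0.0788% of all genes tested did (13 in number, 0.0727% upward and 0.00606% downward in BMAd-DTA animals). Adjusted p values of the members ran from 0.394 for Klrk1 to 0.885 for Gzma. None had an unadjusted p under 0.05 either, where 16.4% of all genes tested had one (7.89% higher and 8.53% lower). DESeq2 called 0 of the 10 genes, where it called 5.42% of all genes with an adjusted p, and limma-voom called 0. Fitted values were higher in BMAd-DTA mice for 6 genes and lower for 4, with a median log2 fold change of 0.094, beside 0.0018 over all genes tested, of which 50.4% had a positive value. The ranges of the groups overlapped for each of the 10 genes, whereas 2.81% of all genes tested separated the groups completely. A p that misses the threshold does not show that the groups are alike, and the interval beside each gene gives the range of differences left by these libraries. In RNA of whole bone, fewer cells of a type and less RNA per cell cannot be told apart.

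**Figure D1:**
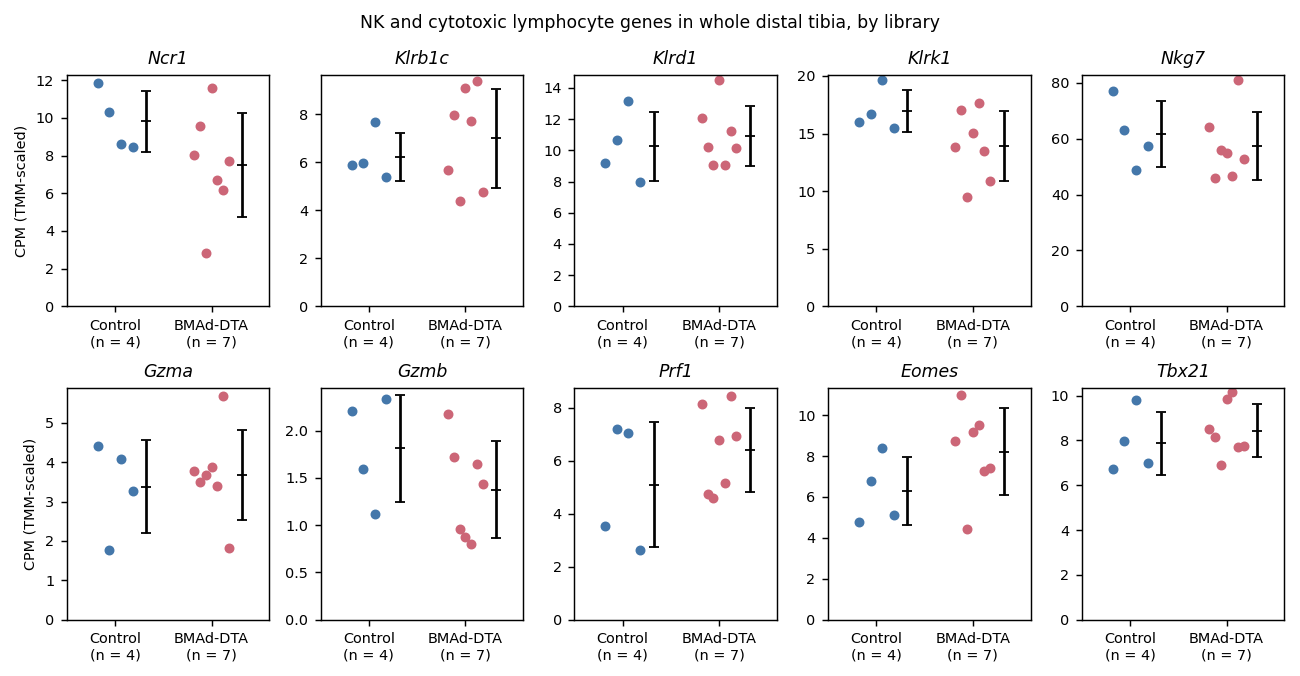
Level of each gene in CPM (TMM-scaled library sizes, linear axes from 0) in 4 Control and 7 BMAd-DTA libraries. Points are libraries, and black bars give the mean ± SD of the group. The points of the groups overlap in all 10 panels, and the lowest Ncr1 level, 2.84 CPM, was in BMAd-DTA replicate 3.

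Levels can be compared between genes only per length, so CPM was divided by the length of the longest annotated transcript. Nkg7, which encodes a granule membrane protein, stood far above the others at 66.9 ± 13.2 CPM per kb (SD, n = 11). Klrd1 followed at 11.6 ± 2.13 CPM per kb. Ncr1 at 5.58 ± 1.72 and Klrk1 at 4.61 ± 0.909 CPM per kb lay within their spread of each other. From Gzma at 3.58 ± 1.10 through Tbx21, Klrb1c and Prf1 to Eomes at 2.11 ± 0.592 CPM per kb, neighbours in the order also overlapped within their SD. Gzmb was lowest at 1.07 ± 0.383 CPM per kb. With the length of all exons merged, the first 3 places and the last 2 stayed as they were, while Klrk1 moved from place 4 to place 8. Its annotated exons add up to 7183 bases against 3259 in its longest transcript.

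The receptors come first. Ncr1 encodes NKp46, the activating receptor most closely tied to NK cells in the mouse (chromosome 7, 4337724 to 4345164 of GRCm38, plus strand). Ncr1 was at 11.8, 10.3, 8.63 and 8.45 CPM in Control replicates 1 to 4. In BMAd-DTA mice it ran from 2.84 CPM in replicate 3 over a median of 7.73 to 11.6 CPM in replicate 4. Of the BMAd-DTA libraries, 5 of 7 lay below every Control and 2 of 7 inside the Control range. The means were 9.81 ± 1.6 CPM in Control (SD, n = 4) and 7.52 ± 2.75 CPM in BMAd-DTA mice (SD, n = 7). The log2 fold change was -0.38 (standard error 0.27, 95% interval -0.97 to 0.20, adjusted p = 0.519 from edgeR's test). Ncr1 had the widest span of the group, 4.18 times from lowest to highest library, and without BMAd-DTA replicate 3 its log2 fold change was -0.24.

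Klrk1 encodes NKG2D, an activating receptor for stress-induced ligands that is also found on CD8 T cells (chromosome 6, 129610323 to 129623864, minus strand). Its Control levels were close together, at 16.0, 16.7, 19.6 and 15.5 CPM in replicates 1 to 4. BMAd-DTA libraries spanned 9.48 to 17.7 CPM with a median of 13.8, and the lowest was again replicate 3. As for Ncr1, 5 of 7 BMAd-DTA libraries were below every Control and none was above. Klrk1 averaged 17.0 ± 1.84 CPM in Control (SD, n = 4) and 13.9 ± 3.01 CPM in BMAd-DTA animals (SD, n = 7), and the log2 fold change was -0.28 (standard error 0.16, 95% interval -0.62 to 0.055, adjusted p = 0.394 from edgeR's test). Its unadjusted p of 0.0932 was the smallest of the group in edgeR's test, and it was 0.0406 (adjusted p = 0.266) without BMAd-DTA replicate 5. Reads on the opposite strand made up 2.14% of those on Klrk1, the largest share in the group, and the stranded counts used here leave them out.

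Klrd1 encodes CD94, the partner of the NKG2 receptors that bind the nonclassical MHC molecule Qa-1 (chromosome 6, 129591782 to 129598775, plus strand). Levels were 9.20, 10.7, 13.2 and 7.98 CPM in Control replicates 1 to 4 and 9.07 to 14.5 CPM, median 10.2, in BMAd-DTA libraries. Of these, 6 of 7 fell inside the Control range and replicate 4 was above it. The log2 fold change was 0.090 (standard error 0.16, 95% interval -0.26 to 0.44), which turned to -0.014 without Control replicate 4.

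Klrb1c encodes NK1.1, the antigen by which NK cells of C57BL/6 mice are usually recognised (chromosome 6, 128778485 to 128789215, minus strand). It was at 5.90, 5.95, 7.68 and 5.39 CPM in Control replicates 1 to 4. BMAd-DTA libraries reached from 4.37 CPM in replicate 3 to 9.39 CPM in replicate 6 around a median of 7.69. They lay on both sides, with 4 of 7 above every Control and 2 of 7 below, and the log2 fold change was 0.17 (standard error 0.22, 95% interval -0.31 to 0.64). Leaving out BMAd-DTA replicate 6, BMAd-DTA replicate 4 or Control replicate 4 lowered it to 0.080, 0.091 and 0.10, and leaving out Control replicate 3 or BMAd-DTA replicate 3 raised it to 0.28 and 0.25. Klrb1c has near copies beside it, such as Klrb1a and Klrb1b, it shares its strand with the overlapping gene model Gm44511, and pairs that map to several places or to overlapping genes are not in the counts. Klrd1, Klrk1 and Klrb1c all lie in the NK gene complex of chromosome 6, which differs between mouse strains. Which strain's copy each mouse carried is not given in the labels.

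The effectors follow. Nkg7 (chromosome 7, 43437073 to 43438249, plus strand) had 799 to 1396 counts per library and was the most abundant of the 10 genes. It was at 76.9, 63.2, 48.8 and 57.5 CPM in Control replicates 1 to 4 and at 45.8 to 81.1 CPM, median 55.0, in BMAd-DTA libraries. The groups covered nearly the same range, 4 of 7 BMAd-DTA libraries lay inside that of Control, and the log2 fold change was -0.10 (standard error 0.15, 95% interval -0.44 to 0.23). On a linear scale this interval runs from 0.738 to 1.17 times the Control level. Leaving out Control replicate 1 moved the log2 fold change to 0.020.

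Prf1 encodes perforin, the pore-forming protein of the granules (chromosome 10, 61297833 to 61304680, plus strand). Control libraries fell into a low and a high pair, at 3.53 and 2.64 CPM in replicates 1 and 4 and 7.18 and 7.03 CPM in replicates 2 and 3. BMAd-DTA libraries lay between 4.60 and 8.45 CPM with a median of 6.77, of which 5 of 7 were inside the Control range and 2 of 7 above it. The mean was 5.10 ± 2.35 CPM in Control (SD, n = 4) and 6.40 ± 1.59 CPM in BMAd-DTA animals (SD, n = 7), and the log2 fold change was 0.33 (standard error 0.28, 95% interval -0.28 to 0.94, adjusted p = 0.613 from edgeR's test). Leaving out Control replicate 4, the lowest, gave 0.11, and leaving out Control replicate 2 gave 0.54. Prf1 also varied with the skeletal muscle markers across the 11 libraries (Pearson r = 0.63, permutation p = 0.0358, adjusted p = 0.262, Spearman rho = 0.69, permutation p = 0.0237, adjusted p = 0.19, r = 0.84 for deviations from group means, r = 0.50 without the 2 libraries farthest from the median). With the muscle score as a covariate its log2 fold change was 0.60 (unadjusted p = 0.0099, adjusted p = 0.203 from edgeR's test), still short of the threshold.

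Granzymes A and B are serine proteases of the same granules. Gzma (chromosome 13, 113093825 to 113100981, minus strand) was at 4.41, 1.77, 4.08 and 3.27 CPM in Control replicates 1 to 4. BMAd-DTA libraries ran from 1.81 to 5.69 CPM with a median of 3.69, and 6 of 7 fell inside the Control range. The log2 fold change of 0.12 (standard error 0.29, 95% interval -0.50 to 0.74) turned to -0.093 without Control replicate 2, in which only 30 counts were on Gzma. Gzmb (chromosome 14, 56258838 to 56262260, minus strand) was the least abundant gene, with 14 to 45 counts per library. It was at 2.2, 1.59, 1.12 and 2.33 CPM in Control replicates 1 to 4 and at 0.803 to 2.18 CPM, median 1.44, in BMAd-DTA libraries. No BMAd-DTA library exceeded all Controls, 3 of 7 were below every Control, and the log2 fold change was -0.40 (standard error 0.32, 95% interval -1.08 to 0.28, adjusted p = 0.577 from edgeR's test). At this depth counting error alone gives Gzmb a coefficient of variation of 19.1%, against 34.6% between libraries of a group, and on a linear scale the interval ran from 0.472 to 1.21 times the Control level.

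Both transcription factors of the group belong to the T-box family. Eomes (chromosome 9, 118478212 to 118486132, plus strand) marks mature NK cells and sets them apart from type 1 innate lymphoid cells. It was at 4.79, 6.77, 8.39 and 5.13 CPM in Control replicates 1 to 4 and at 4.43 to 11 CPM, median 8.72, in BMAd-DTA libraries. The groups overlapped, with 4 of 7 BMAd-DTA libraries above every Control and replicate 3 below every Control. Means were 6.27 ± 1.66 CPM in Control (SD, n = 4) and 8.22 ± 2.10 CPM in BMAd-DTA animals (SD, n = 7), and the log2 fold change of 0.39 was the highest of the positive values in the group (standard error 0.23, 95% interval -0.100 to 0.88, adjusted p = 0.418 from edgeR's test). Its unadjusted p, 0.109 with all libraries, was 0.0177 without BMAd-DTA replicate 3 and 0.0363 without Control replicate 3 (adjusted p = 0.232 and 0.217). Tbx21 encodes T-bet (chromosome 11, 97098071 to 97115331, minus strand) and varied least, by 1.51 times from the lowest to the highest library. It was at 6.72, 7.95, 9.81 and 7.0 CPM in Control replicates 1 to 4 and at 6.92 to 10.2 CPM, median 8.14, in BMAd-DTA libraries, of which 5 of 7 fell inside the Control range (log2 fold change 0.099, standard error 0.14, 95% interval -0.21 to 0.41). Leaving out Control replicate 1 or 4 gave 0.030 and 0.046, leaving out BMAd-DTA replicate 4 or 5 gave 0.058 and 0.048, and leaving out Control replicate 3 gave 0.22.

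**Figure D2:**
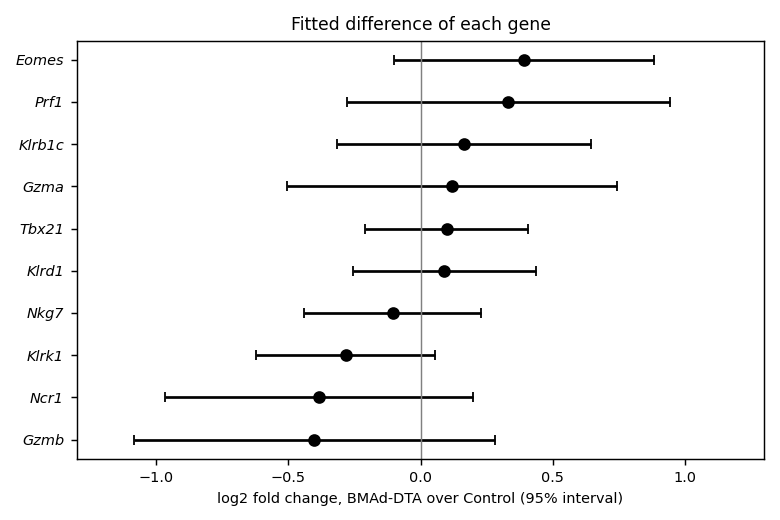
Fitted log2 fold change of each gene, BMAd-DTA over Control, from edgeR's quasi-likelihood fit, with its 95% interval. All 10 intervals include 0, from Gzmb at -0.40 to Eomes at 0.39.

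Variation between mice of a group was larger than counting error for all 10 genes. The coefficient of variation within groups ran from 15.3% for Tbx21 to 34.6% for Gzmb, and counting alone would give 3.10% for Nkg7 to 19.1% for Gzmb. One library carried much of the low end. BMAd-DTA replicate 3 had the lowest level of all 11 libraries for 4 genes, Ncr1, Klrb1c, Klrk1 and Eomes, and was below the median for 8 of 10, as was BMAd-DTA replicate 7. Its mean deviation from the BMAd-DTA mean over the 10 genes was -0.45 on the log2 scale, where the other libraries lay between -0.17 and 0.20 around the mean of their own group. The same library had the highest summed T lymphocyte (441 CPM), basophil and mast cell (314 CPM) and osteoblast markers (20128 CPM) of the series. Its summed B lymphocyte markers were the lowest (1320 CPM). Their mean log2 CPM was not, at 6.72 against 6.42 in Control replicate 1. Its total of 17866706 counts was within the range of the others. BMAd-DTA replicate 6 was highest for 4 genes, Klrb1c, Nkg7, Gzma and Prf1, and had 1024 summed CPM of skeletal muscle markers. With the muscle score as a covariate the log2 fold changes of Klrb1c, Nkg7 and Gzma were 0.21, -0.045 and 0.15, and that of Klrd1 was 0.20.

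**Figure D3:**
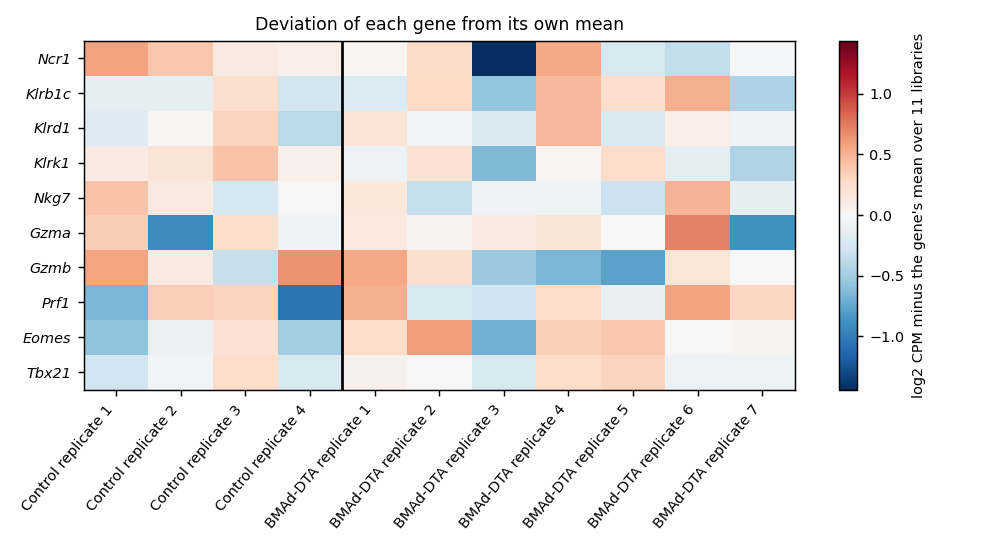
Deviation of each gene (rows) in each library (columns) from that gene's mean log2 CPM over 11 libraries. Red is above and blue below the mean, and the black line parts Control from BMAd-DTA. BMAd-DTA replicate 3 is darkest for Ncr1, at 2.84 CPM.

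Pairs of the genes differed in how closely they varied together between mice. Over 45 pairs and 11 libraries the median Pearson r of log2 CPM was 0.20, and 31 pairs had a positive r. No pair passed an adjusted p of 0.05, while 7 pairs had an unadjusted permutation p under 0.05 for Pearson's r. The closest pair was Eomes and Tbx21 (r = 0.80, permutation p = 0.00388, adjusted p = 0.132, Spearman rho = 0.86, permutation p = 0.00119, adjusted p = 0.0535, r = 0.80 for deviations from group means), which kept r = 0.68 without the 2 libraries farthest from the median of Eomes. Klrd1 and Prf1 came next (r = 0.76, permutation p = 0.00587, adjusted p = 0.132, Spearman rho = 0.71, permutation p = 0.018, adjusted p = 0.406, r = 0.91 without the 2 farthest libraries). For Ncr1 and Klrk1 the r of 0.68 (permutation p = 0.0256, adjusted p = 0.29, Spearman rho = 0.48, permutation p = 0.138, adjusted p = 0.511) rested on BMAd-DTA replicate 3. It was 0.27 without that library, and 0.26 without it and Control replicate 1, the 2 farthest from the median. At the other end stood Gzmb and Tbx21 (r = -0.63, permutation p = 0.0407, adjusted p = 0.29, Spearman rho = -0.57, permutation p = 0.0711, adjusted p = 0.511, r = -0.28 without the 2 farthest libraries), with r = -0.60 for deviations from group means and -0.87 without BMAd-DTA replicate 3. Nkg7 had an r between -0.54 and 0.53 with the other genes and was positively related most of all to Gzmb.

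**Figure D4:**
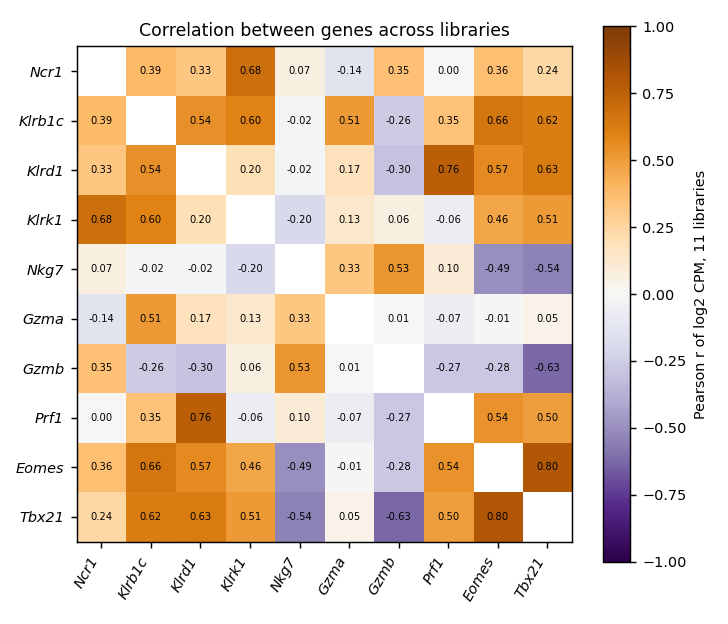
Pearson r of log2 CPM between each pair of the 10 genes across 11 libraries. Orange is positive and purple negative, with values printed in the cells. They run from -0.63 for Gzmb and Tbx21 to 0.80 for Eomes and Tbx21.

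The 10 genes were also set against the mean level of 4 marker lists, T lymphocyte, B lymphocyte, skeletal muscle and plasmacytoid dendritic cell markers, in 40 relations chosen after the values had been seen. None passed an adjusted p of 0.05. Eomes was closest to B lymphocyte markers (r = 0.78, permutation p = 0.00435, adjusted p = 0.112, Spearman rho = 0.79, permutation p = 0.00522, adjusted p = 0.0732, r = 0.72 for deviations from group means, r = 0.61 without the 2 farthest libraries). Tbx21 was closest to plasmacytoid dendritic cell markers (r = 0.77, permutation p = 0.00562, adjusted p = 0.112, Spearman rho = 0.82, permutation p = 0.00337, adjusted p = 0.0732, r = 0.76 for deviations from group means, r = 0.89 without the 2 farthest). Nkg7 ran against B lymphocyte markers (r = -0.69, permutation p = 0.019, adjusted p = 0.253, Spearman rho = -0.79, permutation p = 0.00549, adjusted p = 0.0732, r = -0.69 for deviations from group means, r = -0.44 without the 2 farthest).

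Among 14881 other genes with at least 1 CPM, the deviations from group means most like the mean deviation of the 10 genes were those of Gm7160 (r = 0.93), Klrb1a (r = 0.92), Klra13-ps (r = 0.92), Efna2, Cic, Kiss1r, Mri1, Cx3cl1, Vtn and Ighv1-78 (r = 0.88), over 11 libraries. Klrb1a is a receptor gene next to Klrb1c, and Klra13-ps is a pseudogene of the Ly49 family. This is the top of a ranked list and carries no test. Without BMAd-DTA replicate 3 the r values were between 0.71 and 0.90.

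The bases before the gene starts are shown because T-bet, Eomes and RUNX3 are established regulators of cytotoxic genes, and the letters searched for were chosen after these bases had been seen. RefSeq (GRCm38.p6) gave a start for 9 of the 10 genes. The letters TGTGGT, the core that RUNX factors bind, searched on both strands (ACCACA on the other) in the 250 bases before the start, were present for 7 of 9 genes and in 14.0% of all 32851 such windows. AGGTGT, the core of a T-box site (ACACCT on the other strand), was present for 3 of 9, Nkg7, Gzma and Prf1, and in 11.8% of all windows. These shares count each start, with 32851 windows for 27025 genes, while a member counts once over all its starts (2 for Ncr1). A match is a description of the letters, and binding was not measured. One window of 30 bases per gene with the RUNX letters in capitals is given 5′ to 3′ on the gene's strand, at the match nearest to a RefSeq start. RefSeq places the starts of Klrb1c, Nkg7 and, by a few bases, Prf1 inside the GENCODE genes. Of these the Klrb1c window lies within the annotated gene.
Ncr1 (chr7:4337662-4337691, plus strand): caggcctcacccACCACAtcctgtgcatct
Klrb1c (chr6:128788713-128788742, minus strand): aggaaggaaagcTGTGGTcatggtgttttg
Klrk1 (chr6:129623976-129624005, minus strand): tgatagctgtgcTGTGGTtgtgtgggggtt
Nkg7 (chr7:43437043-43437072, plus strand): gggcccacccctACCACAtaggaggagagg
Gzma (chr13:113101014-113101043, minus strand): gagaagaacaaaACCACAtcctttgcactc
Gzmb (chr14:56262351-56262380, minus strand): tgtgggttctgcTGTGGTtacttcatgatt
Prf1 (chr10:61297694-61297723, plus strand): tgggaacctgtgACCACActctgggggcag
All receptors and effectors with a listed start held the RUNX letters, while Eomes and Tbx21 held neither motif in this window. Runx3 itself was at 53.3 CPM in Control and 58.1 CPM in BMAd-DTA mice, and its log2 fold change was 0.12 (edgeR adjusted p = 0.443).

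Further genes listed for the NK and cytotoxic program also gave no call. In 7 further lists covering receptors, signalling, granules, transcription factors, cytokines and ligands, edgeR's test called 0 genes at the adjusted threshold of 0.05, and the unadjusted p was under 0.05 for 1 other receptor, 2 Ly49 receptors, 1 granule gene, 1 transcription factor and 2 ligands. Over all genes tested these shares were 0.0788% and 16.4%. Summed levels in Control ran from 29.8 to 55.0 CPM for Ly49 receptors up to 2922 to 5349 CPM for ligands. The 10 genes summed to 115 to 142 CPM there. Which cells of whole bone expressed the listed genes was not identified, so the lists do not describe NK cells alone. Of 16 other NK receptors tested, 7 were positive and 9 negative (median log2 fold change -0.065). They ran from Klrb1b, an inhibitory receptor for Clr-b, at -0.49 to Crtam, an adhesion receptor of activated NK and CD8 T cells, at 0.41. Ly49 receptors, which bind MHC class I, were low, with summed levels of 29.8 to 55.0 CPM in Control and 21.3 to 31.0 CPM in BMAd-DTA libraries. Of 9 tested, 8 were negative, with a median of -0.28. Klra2 stood at -0.79 (SE 0.25, edgeR adjusted p = 0.134) and Klra1 at 0.30. Klra2 alone held much of the summed level, at 11.7 to 33.3 CPM in Control and 9.35 to 15.7 CPM in BMAd-DTA libraries. The cells that expressed each Ly49 gene were not identified, so neither the sum nor the Klra2 value can be read as a level of NK cells. The Ly49 genes are near copies of each other and differ between strains, so the split of reads among them is uncertain.

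Adaptors and signalling proteins had a median of 0.037 over 11 genes, 8 of them positive, from Lcp2, which encodes SLP-76, at -0.18 to Cd247, the zeta chain shared by the T cell receptor and NK receptors, at 0.30. The granule list had 4 positive and 11 negative genes and a median of -0.063, from Fasl, the death ligand, at -0.39 to granzyme K (Gzmk) at 0.27. Transcription factors listed for NK cells were positive for 8 of 11 with a median of 0.12, from Zfp683, which encodes Hobit, at -0.58 to Prdm1, which encodes BLIMP-1, at 0.35. Cytokines, chemokines and their receptors had 7 positive and 9 negative genes with a median of -0.030, from Xcl1 at -0.32 to Ccl5 at 0.26. Il15 was at 7.01 ± 1.33 CPM in Control (SD, n = 4) and 6.74 ± 1.74 CPM in BMAd-DTA mice (SD, n = 7), with a log2 fold change of -0.057, and was picked for its role after its value had been seen. Among ligands of NK receptors, 3 of 10 were positive and the median was -0.20, from Raet1e, an NKG2D ligand, at -0.36 to Pvr, the ligand of CD226 and TIGIT, at 0.41 (adjusted p = 0.129 from edgeR's test). Too few counts for a test were found for Klri1, Klra5, Klra10, Gzmc, Ifng, Raet1d and H60b, and H60c was not analysed here.

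**Figure D5:**
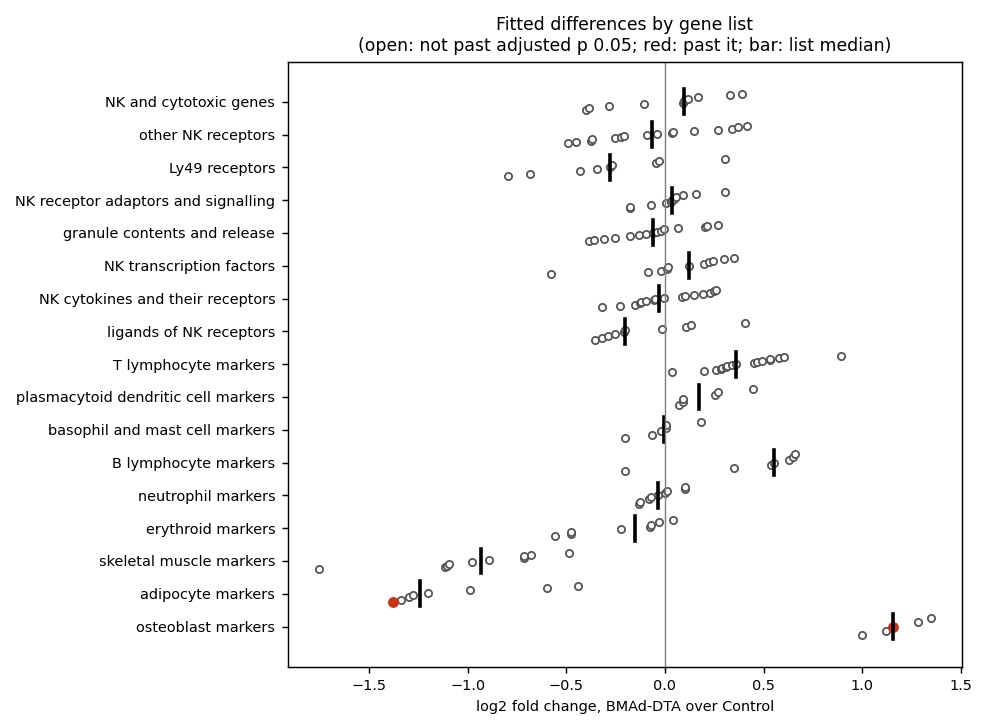
Fitted log2 fold change, BMAd-DTA over Control, of every gene tested in the 10-gene group and in 16 further lists. Open points had an adjusted p of 0.05 or more, red points are below it (Retn at -1.38 and Alpl at 1.16), and black bars are list medians. The 10 genes spread to both sides of 0 around a median of 0.094, and T lymphocyte markers all lie above 0 around 0.36.

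Several of the 10 genes are shared with T cells, so T cell markers were read beside them. All 17 T lymphocyte markers had a positive log2 fold change, with a median of 0.36, from Lat at 0.037 to Cd8b1 at 0.89. None had an adjusted p under 0.05, and 10 had an unadjusted p under 0.05 on the higher side, where 7.89% of all genes did. Of the 17, 2 separated the groups, Thy1 and Trbc2, where 2.81% of all genes tested did. The summed level of all 17 T lymphocyte markers was 259 to 320 CPM in Control and 340 to 441 CPM in BMAd-DTA libraries. Cd4, Thy1 and Lat made up much of it, with means of 46.9, 49.97 and 44.9 CPM in Control mice. In BMAd-DTA mice their means were 69.9, 64.2 and 46.1 CPM. The cells that expressed these genes were not identified, so the T marker sum is not a measure of T cells alone. How often sums over other gene sets separate the groups was not tested. The sum of the 10 genes overlapped, at 115 to 142 CPM in Control and 102 to 152 CPM in BMAd-DTA libraries. Nkg7 alone made up much of this sum, at 48.8 to 76.9 CPM in Control and 45.8 to 81.1 CPM in BMAd-DTA libraries. The cells that expressed Nkg7 were not identified, so the sum is not a measure of lymphocytes alone. Across libraries the mean T marker level had r = 0.48 with Prf1 (permutation p = 0.131, adjusted p = 0.35, Spearman rho = 0.25, permutation p = 0.452, adjusted p = 0.723) and r = 0.31 for deviations from group means. Without the 2 libraries farthest from the median, BMAd-DTA replicate 3 among them, it was 0.55. With Eomes it had r = 0.23 (permutation p = 0.506, adjusted p = 0.836, Spearman rho = 0.19, permutation p = 0.576, adjusted p = 0.853), which was -0.16 for deviations from group means and 0.76 without the same 2 libraries.

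The remaining marker lists place the libraries. Plasmacytoid dendritic cell markers had a median log2 fold change of 0.17, from Cox6a2 at 0.072 to Klk1 at 0.44, and basophil and mast cell markers -0.0051, from Fcer1a at -0.20 to Cpa3 at 0.18. B lymphocyte markers had a median of 0.55, from Ighm at -0.20 to Cd79a at 0.66, neutrophil markers -0.037, from Ltf at -0.13 to Mpo at 0.10, and erythroid markers -0.15, with Hba-a2 highest at 0.039. Skeletal muscle markers were negative for 10 of 10, with a median of -0.93, from Myh1 at -1.76 to Mb at -0.49. None of these 6 lists held a call. Markers of adipocytes, the cells the toxin targets, had negative values for 8 of 8 genes, with a median of -1.24, from Retn, the gene for resistin, at -1.38 (adjusted p = 0.0205 from edgeR's test) to Fabp4 at -0.44. Osteoblast markers had positive values for 5 of 5, with a median of 1.16, from Ibsp at 1.0 to Col1a1 at 1.35, and of these Alpl, the alkaline phosphatase of mineralizing cells, passed the test at 1.16 (adjusted p = 0.0326 from edgeR's test).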

How the data were processed

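Whole distal tibia mRNA of 4 Control and 7 BMAd-DTA mice was sequenced in strand-specific paired-end libraries. The authors deposited raw counts per gene, made with STAR on mm10 with default settings after FastQC 0.11.9, as a merged table and per library. The annotation release was not given in the sources used here. Groups followed the labels, which give no batch or replicate number, so numbers only name libraries. Counts were filtered with filterByExpr, scaled by TMM and tested with edgeR 4.0.16 (quasi-likelihood, genotype as the only term, Benjamini-Hochberg over 16496 genes, threshold 0.05) in R 4.3.3. CPM used TMM-scaled sizes, and log2 CPM a prior count of 2. One count was worth 0.0519 to 0.0591 CPM, and the biological coefficient of variation was 0.202. Intervals are at the 95% level. DESeq2 1.42.0, limma-voom 3.58.1, other scalings, filters and count columns, a muscle covariate and omission of each library were alternatives. Lengths and positions came from GENCODE M21, promoters from RefSeq. Correlations used 100000 permutations, two-sided. The genes and lists were chosen with earlier results of these data known. Text names every gene of the group, each call and the lowest and highest gene of each other list, and the 10 genes most alike in deviations. The lowest gene of the erythroid list is not reported here. The edgeR step was also run on simulated data, and the outcome is not given here. Klf1 and H60c were not analysed here. No pair of libraries within a group agreed within sampling noise.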

Additional observations from a re-analysis of the deposited data

How the results depend on the processing

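No member of the 10-gene group had an adjusted p under 0.05 in any of 22 alternatives, and the smallest adjusted p was 0.203, for Prf1 with the muscle covariate. The median log2 fold change of the group was 0.085 to 0.135 over the other settings and 0.0056 to 0.22 when 1 library was left out, against a main value of 0.094. Leaving out 1 library reversed the sign of Nkg7 (0.020 without Control replicate 1, range -0.21 to 0.020), Gzma (-0.093 without Control replicate 2 and -0.019 without BMAd-DTA replicate 6, range -0.093 to 0.27) and Klrd1 (-0.014 without Control replicate 4, range -0.014 to 0.24). Calls over the whole table moved far more, from 13 to 845 with DESeq2, 20 with limma-voom, 20 with RLE scaling and 3 with the muscle covariate, and to between 0 and 292 when 1 library was left out, with 292 without Control replicate 3 and 89 without Control replicate 4. Calls in the other lists moved from 2 to 11 with DESeq2, 1 with the muscle covariate and between 0 and 6 when 1 library was left out. The cause was not tested. The median correlation between the genes was 0.20, 0.23 for deviations from group means and 0.081 without BMAd-DTA replicate 3, which was chosen after seeing the data. The median level per length was 3.44 CPM per kb, or 2.80 with merged exons. No paired analysis was possible because the groups were different mice and the labels link no Control mouse to a BMAd-DTA mouse. With 4 Control mice and 14 to 45 counts, Gzmb was the least precisely measured.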
